A study of Homo sapiens with 6 samples.

Results

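Integrin and laminin genes were examined in HEK293 cells, an established line of human embryonic kidney origin. The genes were all those with an integrin alpha, integrin beta or laminin chain symbol (ITGA, ITGB, LAMA, LAMB or LAMC) and at least 10 reads in at least 3 libraries. Of 38 gene rows with such a symbol, 30 met the read minimum, out of 23686 gene rows in all. They were 14 integrin alpha, 5 integrin beta, 5 laminin alpha, 3 laminin beta and 3 laminin gamma genes, and all 30 also passed the separate filter on low counts used for testing.

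Both groups held 3 libraries of HEK293 cells that carried green fluorescent protein (GFP) and were sorted for it by flow cytometry. In the co-culture group, the sorted cells had grown for 10 h beside HEK293 cells carrying DAAO, with 25 µM D-alanine. Such cells produce reactive oxygen species (ROS). DAAO commonly stands for D-amino acid oxidase, an enzyme that oxidises D-alanine and releases hydrogen peroxide. Controls, titled Wt (the usual short form of wild type), were GFP-positive cells sorted in the same way, and both groups have the genotype label GFP+. The sample labels repeat a single treatment text in both groups, with 25 µM D-alanine and 10 h of co-culture for the controls too. Whether the controls received D-alanine or partner cells is therefore not known. D-alanine, partner cells and ROS cannot be told apart as the difference between the groups. All samples are of 1 cell line, no label says that the replicates were separate cultures, and p-values therefore measure the spread between these libraries, which may be technical. RNA was measured in bulk, so a change in the share of expressing cells and a change in RNA per cell cannot be told apart.

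Laminins are proteins of the basement membrane, each built from 1 alpha, 1 beta and 1 gamma chain that join inside the cell before secretion. Integrins are receptors made of 1 alpha and 1 beta subunit. They bind laminins, fibronectin, collagens or proteins on other cells, and they link these ligands to the actin cytoskeleton through talin, kindlins and vinculin. Kidney epithelium rests on laminin, and epithelial cells hold to it mostly through integrins that contain ITGB1.

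Each library held between 19091085 and 36250314 gene-assigned reads. The libraries differed in the share of reads on the strand opposite to the expected one. Its median over 4907 well-covered genes (1000 or more reads per library) was 0.124% and 0.211% in co-culture libraries 2 and 3, and 1.57% to 1.75% in co-culture library 1 and the controls. A fit with a batch term for these 2 strand classes is therefore given for the integrin, laminin and list genes named as past the threshold. In it co-culture library 1 alone is compared with the controls. Of 14582 genes tested with edgeR's quasi-likelihood test, 704 (4.83%) had a Benjamini-Hochberg adjusted p under 0.05, 388 higher and 316 lower. Scaled by total counts the split was 310 higher and 572 lower. The count changed strongly with single libraries, from 65 without control 2 to 3069 without control 1. Levels are given as normalised read counts in CPM, the gene's reads relative to the library's total after TMM scaling in edgeR.

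Among the integrin and laminin genes, 5 rose and 1 fell in co-culture. LAMB3, a laminin beta chain, rose by 1.84 times from 15.4 to 28.4 CPM, and it was the 1 gene of the 30 that passed in every setting tried. ITGA5, the alpha subunit of the classical fibronectin receptor, rose from 84.6 to 116 CPM, and ITGA6, a laminin receptor subunit, from 134 to 165 CPM. The laminin chains LAMA3 and LAMB1 rose by smaller folds, 1.20 and 1.18 times, and ITGA8, an alpha subunit known from kidney development, fell from 26.3 to 21.3 CPM. These 6 genes are 20% of the 30, against 4.83% of all genes tested (2.66% higher and 2.17% lower). The 30 genes were chosen with earlier results of these data known, so this share is a description and not an independent test.

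Counted with these 6, most of the 30 genes had higher values in co-culture. Positive log2 fold changes were found for 21 of the 30 genes and for 7229 of 14582 genes tested (49.6%), with medians of 0.17 and -0.0022. The CPM values of the groups did not overlap for 15 of the 30, of which 12 were higher in co-culture and 3 lower. Over all genes tested, 29.3% did not overlap (14.3% higher and 15% lower). An unadjusted p under 0.05 was found for 15 of the 30 and for 23.2% of all genes. As a share of all gene-assigned reads, the 30 genes took 0.319%, 0.321% and 0.317% in co-culture libraries 1, 2 and 3, and 0.295%, 0.284% and 0.290% in controls 1, 2 and 3.

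**Figure D1:**
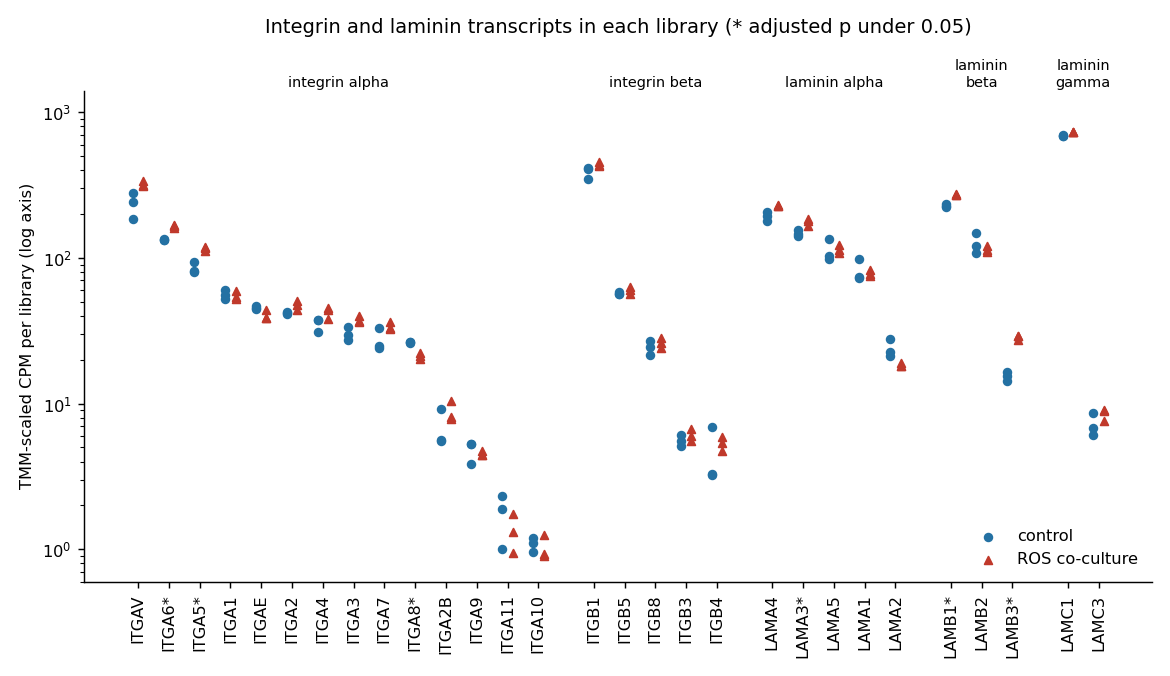
Level of 29 of the 30 genes in every library, in TMM-scaled CPM on a log axis, with controls as circles and co-culture libraries as triangles. LAMB3 sits between 14.3 and 16.4 CPM in the controls and between 27.13 and 29.02 CPM in co-culture, with no overlap.

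LAMB3 encodes the beta chain that joins LAMA3 in the laminin of epithelial anchoring contacts, best known from skin. It stood at 29.02, 27.13 and 29.02 CPM in co-culture libraries 1, 2 and 3 and at 15.5, 14.3 and 16.4 CPM in controls 1, 2 and 3. Every co-culture library lay above every control. Its log2 fold change was 0.88 (SE 0.08, edgeR adjusted p 0.000623). Adding the strand batch term gave 0.91 (edgeR adjusted p 0.0356), where 0.199% of all genes passed.

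LAMA3, the alpha chain of that laminin, stood at 178, 184 and 167 CPM in co-culture and at 145, 142 and 155 CPM in the controls. These values did not overlap, and LAMA3 rose by 0.26 on the log2 scale (SE 0.06, edgeR adjusted p 0.0437). The strand batch term gave 0.27 and ended the call (edgeR adjusted p 0.305). For each LAMA3 read there were 0.163, 0.148 and 0.174 LAMB3 reads in co-culture and 0.106, 0.100 and 0.106 in the controls. This ratio was chosen after the values were seen, and it did not overlap between the groups. Of 4 keratinocyte markers, KRT5, KRT14 and KRT1 had 1 read each over all 6 libraries, and KRT10 fell from between 35.1 and 38.1 CPM in the controls to between 25.2 and 29.9 CPM in co-culture (-0.40 on the log2 scale, edgeR adjusted p 0.0219).

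Sequence before the transcription start was taken from RefSeq (GRCh38.p14) by gene symbol, which matched 22 of the 30 genes with 29 start sites. The other 8 genes, among them ITGA3, ITGA7, ITGA9, ITGB3, ITGB4, LAMA1 and LAMC3, had no entry. The 250 bases before each start were searched on both strands for TGANTCA, the core recognised by AP-1 factors, and for CACGTG (an E-box), GGGCGG (a GC box) and the CArG box of serum response factor. TGANTCA was found once before start 3 of the 3 listed for LAMB3. It was found at 2 places before the only start listed for LAMA3, and at no listed start of the other 20 genes. That is 2 of 29 windows (6.90%), against 6.57% of 35116 windows genome-wide. The windows of these 2 genes are shown, with TGANTCA matches in capitals, beside that of ITGA5, a gene that rose. All are written 5′ to 3′ on the gene's strand, minus for LAMB3 and ITGA5 and plus for LAMA3. ITGA5 has no match within its 250 bases. Its window ends in TGAGTC, and bases after the start were not searched, so a match that crosses the start would be missed.

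LAMB3, start 3, chr1:209651375-209651624: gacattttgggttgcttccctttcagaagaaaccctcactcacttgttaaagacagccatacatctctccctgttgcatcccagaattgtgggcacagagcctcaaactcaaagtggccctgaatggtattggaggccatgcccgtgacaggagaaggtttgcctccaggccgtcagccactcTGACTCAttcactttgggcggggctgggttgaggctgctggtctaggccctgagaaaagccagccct
LAMA3, chr18:23872770-23873019: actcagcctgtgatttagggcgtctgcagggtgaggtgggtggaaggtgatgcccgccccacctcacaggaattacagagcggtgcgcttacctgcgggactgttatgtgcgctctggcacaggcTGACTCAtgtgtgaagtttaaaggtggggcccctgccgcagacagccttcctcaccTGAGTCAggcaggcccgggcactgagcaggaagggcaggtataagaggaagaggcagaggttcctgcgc
ITGA5, chr12:54419267-54419516: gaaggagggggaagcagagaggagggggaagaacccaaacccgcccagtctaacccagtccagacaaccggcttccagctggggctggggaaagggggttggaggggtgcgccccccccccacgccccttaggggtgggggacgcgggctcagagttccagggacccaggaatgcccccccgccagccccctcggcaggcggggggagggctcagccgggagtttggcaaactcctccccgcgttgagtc

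The LAMB3 match begins 67 bases before the start, and the LAMA3 matches begin 125 and 69 bases before it. None of them overlaps a match to another searched motif. GGGCGG occurred in 16 of the 29 windows (55.2%) and in 42.6% of all windows. CACGTG occurred in 1, before start 1 of ITGA6, and in 6.34% of all windows, and the CArG box in 0 and in 1.16%. Bases just after that ITGA6 start were not found in a GENCODE 29 transcript of the gene. The same held for LAMC1, ITGAV start 1, ITGB5 start 3 and ITGA2B, whose windows are counted here. Matches only describe these letters. The read counts are per gene and do not show which LAMB3 start was used, or whether LAMA3 was read from the listed start.

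The other beta chains, LAMB1 and LAMB2, are the general partners of most laminin alpha chains. LAMB1 stood at 269, 273 and 271 CPM in co-culture and at 236, 222 and 228 CPM in the controls, with no overlap. It rose by 0.24 on the log2 scale (SE 0.06, edgeR adjusted p 0.0348), and did not pass with the strand batch term (0.23, edgeR adjusted p 0.32). LAMB2 had 109, 114 and 120 CPM in co-culture and 149, 108 and 120 CPM in the controls. Its groups overlapped and control 1 was the highest library (log2 fold change -0.13, SE 0.10, edgeR adjusted p 0.474).

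Of the other alpha chains, LAMA4, a chain of vascular and mesenchymal basement membranes, and LAMA2, the chain of muscle laminin, stood nearest to the threshold, on opposite sides of 0. LAMA4 had 228, 232 and 227 CPM in co-culture and 181, 194 and 208 CPM in the controls, giving 0.23 on the log2 scale (SE 0.06, edgeR adjusted p 0.0617). LAMA2 had 18.11, 19.1 and 17.99 CPM in co-culture and 27.9, 21.3 and 22.8 CPM in the controls, giving -0.38 on the log2 scale (SE 0.10, edgeR adjusted p 0.0599). Neither gene overlapped between the groups, and neither passed. LAMA5, the chain of mature epithelial laminin, had 109, 123 and 114 CPM in co-culture and 134, 103 and 98.4 CPM in the controls. LAMA1, the chain of early embryonic laminin, ranged from 75.7 to 82.1 CPM in co-culture and from 72.4 to 98.9 CPM in the controls. For LAMA5 and LAMA1 the highest library was control 1 (edgeR adjusted p 0.859 and 0.806).

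The gamma chains LAMC1 and LAMC3 did not pass edgeR's test, DESeq2 or limma-voom, and neither had an unadjusted p under 0.05. LAMC1, the gamma chain of most laminins, had 727, 728 and 736 CPM in co-culture and 694, 691 and 690 CPM in the controls. The groups did not overlap, at 0.08 on the log2 scale (SE 0.06, edgeR adjusted p 0.452). LAMC3 ranged from 7.61 to 9.03 CPM in co-culture and from 6.05 to 8.64 CPM in the controls, which overlap (log2 fold change 0.25, SE 0.15).

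**Figure D2:**
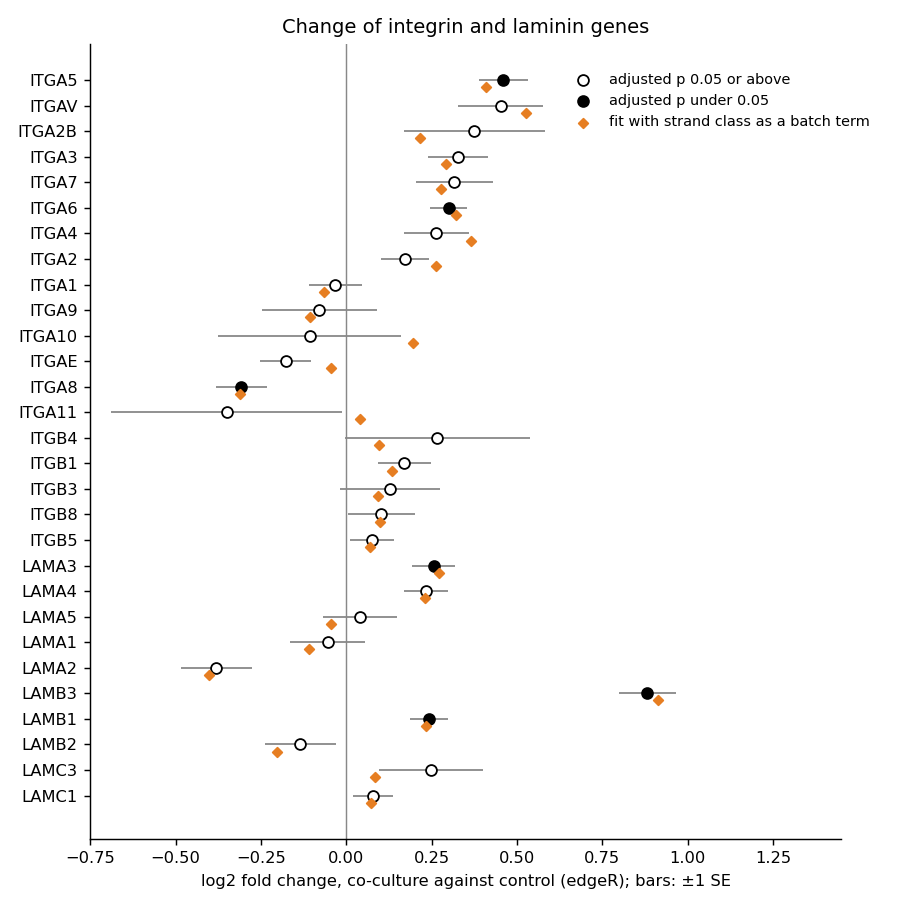
Log2 fold change of 29 of the 30 genes (circles, with bars of 1 SE) from edgeR's fit of co-culture against control, by family, and after adding the strand batch term (diamonds). Filled circles mark the 6 genes past an adjusted p of 0.05, and LAMB3 at 0.88 is the farthest from 0.

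Among the integrin alpha subunits, 3 of 14 passed the test (21.4%, against 4.83% of all genes), 2 higher and 1 lower (2.66% and 2.17% of all genes). ITGA5 pairs with ITGB1 alone. It had 112, 117 and 119 CPM in co-culture and 93.6, 80.7 and 79.5 CPM in the controls, so the groups were well apart. ITGA5 rose by 0.46 on the log2 scale (SE 0.07, edgeR adjusted p 0.00719), and did not pass with the strand batch term (0.41, edgeR adjusted p 0.214). ITGA6 pairs with ITGB1, or with ITGB4 in hemidesmosomes, and binds laminins. It had 167, 166 and 161 CPM in co-culture and 133, 136 and 132 CPM in the controls, again with no overlap. ITGA6 rose by 0.30 on the log2 scale (SE 0.05, edgeR adjusted p 0.0145), with 0.32 and no call under the strand batch term (edgeR adjusted p 0.197).

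ITGA8 pairs with ITGB1 and is the receptor for nephronectin in the developing kidney. It had 21.2, 22.3 and 20.3 CPM in co-culture and 26.5, 26.3 and 26.2 CPM in the controls. The controls were nearly equal, and all co-culture libraries lay below them. ITGA8 fell by 0.31 on the log2 scale (SE 0.08, edgeR adjusted p 0.0434), and did not pass with the strand batch term (-0.31, edgeR adjusted p 0.335). NPNT, the gene for nephronectin, moved the other way, from 75.4, 69.2 and 75.4 CPM in the controls to 95.6, 92.6 and 89.0 CPM in co-culture (log2 fold change 0.33, SE 0.06, edgeR adjusted p 0.0176). NPNT missed the threshold with the strand batch term (0.38, edgeR adjusted p 0.182).

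ITGAV pairs with several beta subunits and binds ligands with an arginine-glycine-aspartate site, among them latent TGF-beta. It had 340, 312 and 317 CPM in co-culture and 186, 242 and 279 CPM in the controls. The groups did not overlap, but the controls were spread widely, and the log2 fold change of 0.45 (SE 0.13) had an edgeR adjusted p of 0.0749. Among the laminin receptor subunits that did not pass, ITGA3 had 36.9, 36.5 and 39.8 CPM in co-culture and 33.8, 27.2 and 29.4 CPM in the controls (log2 fold change 0.33, SE 0.09, edgeR adjusted p 0.0579). ITGA7 had 32.9, 36.2 and 32.4 CPM in co-culture and 32.8, 24.8 and 24.0 CPM in the controls (0.32, SE 0.11, edgeR adjusted p 0.131). In ITGA7 control 1 overlapped the co-culture range.

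The collagen receptors did not pass. ITGA2 was at 50.3, 44.1 and 47.4 CPM in co-culture and 41.3, 42.8 and 41.7 CPM in the controls (log2 fold change 0.17, SE 0.07, edgeR adjusted p 0.168). ITGA1 had a log2 fold change of -0.03 (SE 0.08), with 52.1 to 59.3 CPM in co-culture and 52.4 to 60.4 CPM in the controls. ITGA10 and ITGA11 lay between 0.903 and 2.32 CPM in all libraries. ITGA4, which binds fibronectin and VCAM1, stood at 45.6, 43.9 and 38.4 CPM in co-culture and 37.8, 37.7 and 31.0 CPM in the controls (0.26, SE 0.10, edgeR adjusted p 0.131). ITGAE, known as the lymphocyte receptor for E-cadherin, had 44.2, 38.4 and 38.6 CPM in co-culture and 44.6, 47.0 and 45.3 CPM in the controls (-0.18, SE 0.07, edgeR adjusted p 0.182). Its partner ITGB7 had at most 3 reads in any library. ITGA2B, the platelet fibrinogen receptor subunit, and ITGA9 had log2 fold changes of 0.38 (SE 0.21) and -0.08 (SE 0.17).

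No integrin beta subunit passed edgeR's test, DESeq2 or limma-voom, and 1 of the 5 (ITGB1) had an unadjusted p under 0.05. ITGB1, the shared partner of most alpha subunits, had 427, 454 and 432 CPM in co-culture and 346, 406 and 416 CPM in the controls. Its groups did not overlap, and its log2 fold change was 0.17 (SE 0.08, edgeR adjusted p 0.214). ITGB5, a partner of ITGAV, had 59.8, 56.9 and 63.3 CPM in co-culture and 56.9, 56.3 and 57.9 CPM in the controls, which overlap (0.07, SE 0.06). ITGB8, also a partner of ITGAV, had 26.1, 28.4 and 24.1 CPM in co-culture and 21.6, 24.4 and 26.9 CPM in the controls, which overlap as well (0.10, SE 0.10). The log2 fold changes of ITGB3 and ITGB4 were 0.13 (SE 0.15) and 0.27 (SE 0.27), and in ITGB4 control 1 had 6.87 CPM against 3.29 and 3.26 CPM in controls 2 and 3.

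Read ratios within a library, chosen after the values were seen, set alpha subunits against ITGB1. For ITGA5 the ratio was 0.263, 0.257 and 0.277 in co-culture and 0.271, 0.199 and 0.191 in the controls, so control 1 overlapped. ITGA8 reads per ITGB1 read were 0.0497, 0.0492 and 0.0471 in co-culture and 0.0767, 0.065 and 0.0629 in the controls, with every control higher. ITGA6 reads per ITGB1 read were 0.391, 0.364 and 0.373 in co-culture and 0.386, 0.335 and 0.318 in the controls, where control 1 again overlapped. The ITGAV ratio was 0.795, 0.686 and 0.734 in co-culture and 0.539, 0.598 and 0.67 in the controls, with every co-culture library higher.

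Levels can be compared between subunits only per length, here as CPM per kb of the longest GENCODE 29 protein-coding transcript. In the controls ITGB1 was highest, at 103 ± 10.1 CPM per kb (SD, n = 3), followed by LAMC1 at 87.7 ± 0.261. After them came LAMB1 at 39.7 ± 1.15, ITGAV at 33.6 ± 6.64 and LAMA4 at 29.7 ± 2.10. ITGAV overlapped both LAMB1 and LAMA4, which did not overlap each other. Next were ITGA6 at 23.8 ± 0.336, LAMB2 at 22.2 ± 3.69 and ITGA5 at 19.03 ± 1.76. LAMB2 overlapped both ITGA6 and ITGA5, which did not overlap each other. On this length the most abundant chains were the gamma chain LAMC1, the beta chain LAMB1 and the alpha chain LAMA4, with LAMA3 next among the alpha chains at 13.8 ± 0.615. LAMB3 stood at rank 21 of 30 in the controls, at 3.58 ± 0.247 CPM per kb, and at 6.60 ± 0.254 in co-culture. The order depends on the transcript taken. With the shortest protein-coding transcript of each gene in place of the longest, LAMA4 would stand at 301.4 CPM per kb, above ITGB1 at 107, and LAMA1 at 62.4, above LAMA3 at 29.5, so the order of the alpha chains is not settled by these levels.

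**Figure D3:**
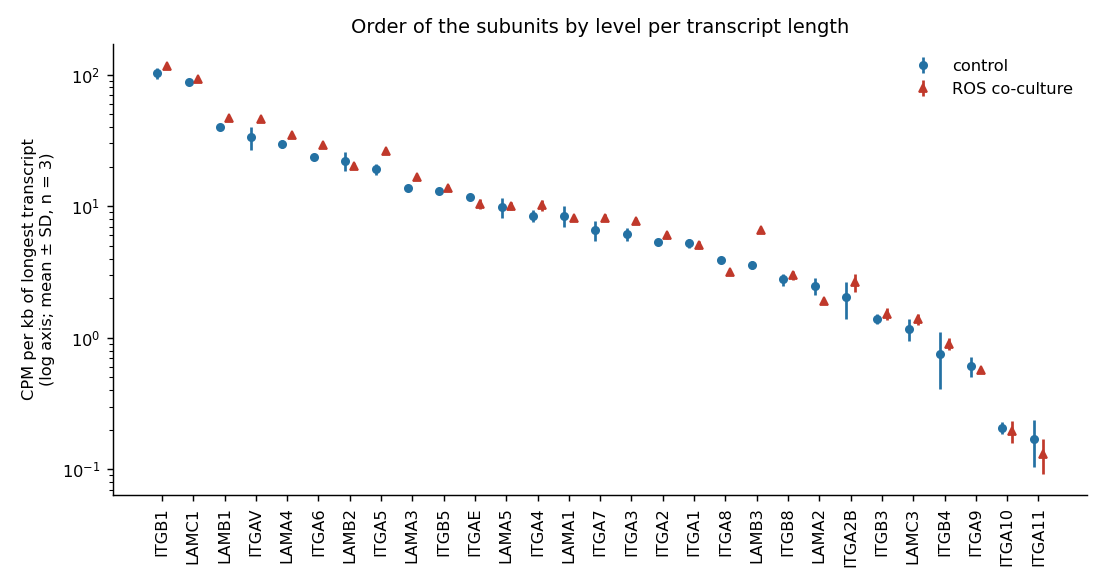
Levels of 29 of the 30 genes per kb of longest transcript, in CPM per kb on a log axis, in the order of the control means, as means with bars of 1 SD over 3 libraries (circles control, triangles co-culture). ITGB1 and LAMC1 lead at 103 and 87.7 CPM per kb, and LAMB3 shows the widest gap between the groups.

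The 8 genes under the read minimum were ITGAD, ITGAL, ITGAM, ITGAX, ITGB2, ITGB6, ITGB7 and LAMB4. ITGAL, ITGAM, ITGAX and ITGAD pair with ITGB2 on leukocytes, and ITGB2 itself had between 0 and 3 reads per library. Just outside the minimum, ITGAX had 9, 13 and 16 reads in co-culture and 4, 2 and 3 in the controls. Just inside it, ITGA10 had 25, 19 and 33 reads in co-culture and 19, 23 and 29 in the controls. Of 11 leukocyte and platelet markers, 5 had 0 reads in every library and 10 stayed under 1 CPM. Their summed level was 1.35 to 2.00 CPM in co-culture and 2.07 to 2.35 CPM in the controls.

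Markers of the line itself were present: 8 of 9 (NEFL, NEFM, INA, VIM, KRT8, KRT18, PAX2 and CDH2) stayed above 1 CPM, and PAX8 reached at most 0.303 CPM. Their sum was 2410 to 2620 CPM in co-culture and 1990 to 2070 CPM in the controls, and VIM and INA rose (log2 fold changes 0.40 and 0.38, edgeR adjusted p 0.00793 and 0.0118). Summed fibroblast markers were 50.8 to 55.6 and 46.8 to 55.5 CPM, with LUM lower in co-culture (-0.67, edgeR adjusted p 0.0293) and COL1A2 at or near 0. Endothelial markers summed to at most 0.665 CPM, and muscle markers to 1.75 to 2.35 CPM in co-culture and 1.80 to 2.35 CPM in the controls. The keratinocyte sum was 25.2 to 29.9 CPM in co-culture and 35.1 to 38.1 CPM in the controls and came from KRT10, which fell (-0.40, edgeR adjusted p 0.0219). The part of these markers in the changes of integrin and laminin genes was not tested. Partner cells left in the sort would carry the same markers, so their share was not tested either.

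DESeq2 called 10 of the 30 genes, adding ITGA3, ITGAV, LAMA2 and LAMA4 (7.08% of all genes). The 6 genes were called by limma-voom (4.43%), with RLE size factors (4.86%), with total-count scaling (6.05%) and on unstranded counts (4.46%). With the replicate number as a block, LAMB3 and ITGA5 passed, 2 of the 30 (1.12% of all genes). How many integrin and laminin genes passed depended on single libraries. Without co-culture library 1 or 3 there were 2 and 3 (0.831% and 2.18% of all genes passed), without co-culture library 2 or control 2 there was 1 (0.503% and 0.44%), and without control 3 there were 6 (5%). Without control 1, 17 of the 30 passed, 15 higher and 2 lower, where 20.8% of all genes passed. Among these 17 were LAMA5, LAMC3 and ITGB4, which did not pass in the fit of all libraries. LAMB3 passed in all 6 of these fits, at log2 fold changes from 0.83 to 0.93. ITGA5 missed the threshold without co-culture library 2 or control 2, with log2 fold changes from 0.42 to 0.54 over the 6 fits. ITGA6 missed it when control 2 or either of co-culture libraries 1 and 2 was left out, at 0.29 to 0.32.

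LAMA3 passed in 2 of the 6, those without control 1 or control 3 (0.23 to 0.30). LAMB1 and ITGA8 passed in 1 each, without control 1, with ranges of 0.22 to 0.26 and -0.34 to -0.27. With the strand batch term LAMB3 passed and the other 5 did not. The direction of each of the 6 called genes was the same in all 16 alternative settings. Reads on the opposite strand made up at most 3.74% of the reads over any of the 6 genes in any library.

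**Figure D4:**
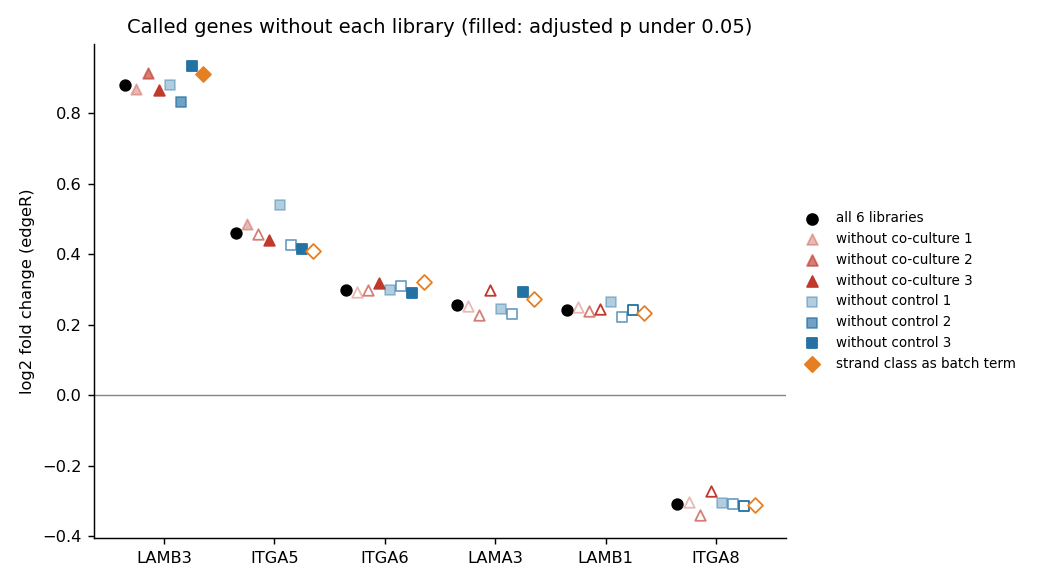
Log2 fold changes of the 6 genes past the threshold, with all libraries (black circles), without each library in turn and with the strand batch term (diamonds), filled where the edgeR adjusted p is under 0.05. LAMB3 stays between 0.83 and 0.93 and filled throughout, while LAMB1 and ITGA8 keep their size and lose their fill in most fits.

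Genes around these receptors and matrix proteins were taken as 8 lists with 194 genes, of which 166 were tested. Of these, 11 rose and 4 fell (9.04%, against 4.83% of all genes). The lists were chosen with earlier results of these data known, so their shares are descriptions and not independent tests. In the list of other integrin ligands, 7 of 28 tested genes rose and 2 fell (32.1%, against 4.83% of all genes), with a median log2 fold change of 0.22. FN1 (fibronectin), the ligand of the ITGA5 and ITGB1 pair, had 1503, 1471 and 1581 CPM in co-culture and 861, 748 and 920 CPM in the controls. It rose by 0.85 on the log2 scale (SE 0.08, edgeR adjusted p 0.000678), and it was the 1 list gene that passed with the strand batch term (0.83, edgeR adjusted p 0.0356).

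TNC (tenascin C), a matrix glycoprotein bound by several integrins, rose from 142, 133 and 155 CPM in the controls to 202, 206 and 228 CPM (0.57, SE 0.07, edgeR adjusted p 0.00297). TGFB1, whose latent form is activated by integrins with ITGAV, rose from 73.3, 59.7 and 57.2 CPM to 85.6, 95.0 and 99.8 CPM (0.56, SE 0.10, edgeR adjusted p 0.0118). With the strand batch term TNC and TGFB1 stood at 0.50 and 0.43 and did not pass (edgeR adjusted p 0.142 and 0.267). NPNT, FBN2, THBS1 and TGFBI also rose, at log2 fold changes of 0.33, 0.32, 0.48 and 1.44, and ICAM1 and POSTN fell, at -1.01 and -1.55. None of these 6 passed with the strand batch term (edgeR adjusted p from 0.182 for NPNT to 0.516 for THBS1). These genes other than FN1, TNC and TGFB1 were named after their values were seen. The level of TGFBI was at most 2.49 CPM and that of POSTN at most 3.39 CPM in any library.

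Basement membrane genes other than laminins gave 2 higher and 1 lower of 24 tested (12.5%, against 4.83% of all genes), with a median of 0.01. COL4A1 (a collagen IV chain found in most basement membranes) rose from 159, 154 and 167 CPM in the controls to 200, 215 and 223 CPM (0.41, SE 0.06, edgeR adjusted p 0.00719). COL4A3, a chain of the kidney filter's collagen IV, rose from 17.4, 15.4 and 15.7 CPM to 26.8, 29.4 and 22.5 CPM (0.69, SE 0.11, edgeR adjusted p 0.00719). SMOC1, a calcium-binding matrix protein, fell from 66.2, 63.3 and 63.4 CPM to 46.1, 50.5 and 50.6 CPM (-0.39, SE 0.07, edgeR adjusted p 0.0105). None of the 3 passed with the strand batch term, where COL4A1, COL4A3 and SMOC1 had 0.32, 0.73 and -0.48 (edgeR adjusted p 0.228, 0.155 and 0.126). NID1, the nidogen that joins laminin to collagen IV, had a log2 fold change of -0.03 (SE 0.07).

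The machinery inside the cell passed at about the background share of 4.83%. In the adhesion complex list 1 of 27 genes passed (3.7%), VCL (vinculin), which rose from 234, 223 and 222 CPM to 294, 291 and 292 CPM (0.37, SE 0.06, edgeR adjusted p 0.00666). In the signalling list 1 of 26 passed (3.85%), the Src family kinase gene FYN, which fell from 144, 139 and 143 CPM to 111, 114 and 119 CPM (-0.31, SE 0.06, edgeR adjusted p 0.0139). With the strand batch term VCL and FYN had 0.38 and -0.36 and did not pass (edgeR adjusted p 0.163 and 0.178). Medians of these lists were 0.06 and -0.02. The groups did not overlap for 12 of the 26 signalling genes (46.2%), 4 higher and 8 lower. In the adhesion complex list this held for 6 of 27 (22.2%), 6 higher and 0 lower. Over all genes tested it held for 29.3% (14.3% higher and 15% lower). Talin (TLN1) and the focal adhesion kinase gene PTK2 had log2 fold changes of 0.07 (SE 0.07) and 0.09 (SE 0.05).

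CD151, a tetraspanin that binds laminin-receptor integrins, was the 1 of 19 genes of the membrane partner list to pass (5.26%, about the 4.83% of all genes). It is also in the list of hemidesmosome partners, where it was the 1 of 4 that passed. It rose from 122, 119 and 121 CPM in the controls to 144, 139 and 153 CPM in co-culture (0.27, SE 0.06, edgeR adjusted p 0.0302), and did not pass with the strand batch term (0.26, edgeR adjusted p 0.308). With edgeR, 0 of 22 genes passed in the list of other laminin receptors and dystroglycan glycosylation and 0 of 17 among matrix proteases and inhibitors. In each of these lists 4 genes had an unadjusted p under 0.05, as did 23.2% of all genes. DESeq2 called 1 in each (POMGNT1 and TIMP1, named after their values were seen), against 7.08% of all genes, and limma-voom called 0. DAG1, the gene for dystroglycan, had a log2 fold change of 0.11 (SE 0.06).

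**Figure D5:**
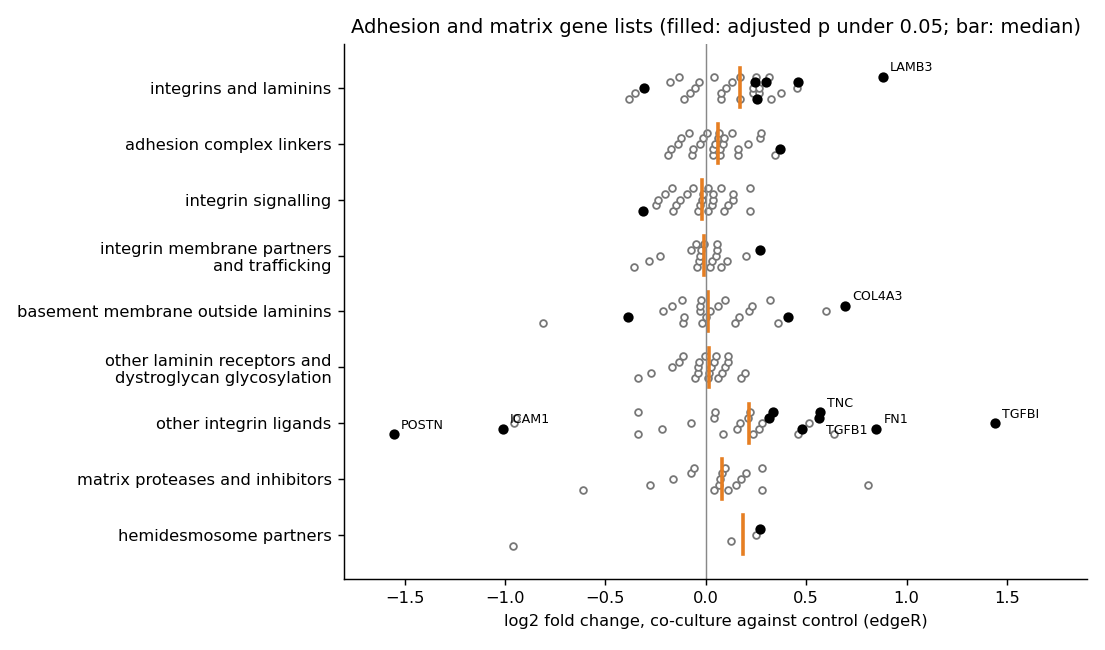
Log2 fold changes of the 30 integrin and laminin genes and of the 8 lists of adhesion and matrix genes, 1 point per tested gene, filled where the edgeR adjusted p is under 0.05, with the median as a bar. The medians of integrins and laminins (0.17) and of other integrin ligands (0.22) lie right of 0, and those of the signalling and membrane partner lists lie at -0.02 and -0.01.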

How the data were processed

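The authors deposited raw read counts per gene, whole numbers in STAR's gene-count layout, for 3 co-culture and 3 control libraries made with a stranded mRNA kit, per the labels' protocols. STAR 2.53a and build hg18 are named in the submitters' processing notes; the annotation is not given in the sources used here. The reverse-strand column was used, and the 4 summary lines (24.2% to 28.5% of reads) were left out. Reads mapped to several places stand in one of those lines, so near-identical genes may lose reads. Groups came from the sample titles, and no library pair within a group agreed within sampling noise (chi-square per degree of freedom 4.73 to 18.5).

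Genes were filtered with filterByExpr (minimum count 10), scaled with TMM and tested in R 4.3.3. The tool was edgeR 4.0.16, with robust quasi-likelihood fits, no covariate besides group, and Benjamini-Hochberg adjustment over 14582 genes at 0.05. Each standard error was derived from the fold change and its F statistic (size of log2 change over the root of F). DESeq2 1.42.0 and limma 3.58.1 (voom) were alternatives. The procedure was tested on simulated data, in which the changed genes moved by more than any integrin or laminin gene did here. That test does not show how well changes of their size are called. A single read was worth 0.0279 to 0.0522 CPM, depending on the library.

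The members and lists were chosen with earlier results of these data known. Genes named in the text were all members past the threshold or at an unadjusted p under 0.05, the 3 highest of each family, and up to 3 called genes per list, with the remaining members given more briefly. NID1, TLN1, PTK2 and DAG1 were named outside this rule after their values were seen. Of 194 list genes, 8 were found under an older symbol and 2 (B4GAT1 and CCN3) were not matched. Transcript lengths came from GENCODE 29 and promoters from RefSeq. A planned search of protein sequences was not run. The values of 1 gene are not reported here, in the text or by name in the figures, and it stays in the counts over all 30.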

Additional observations from a re-analysis of the deposited data

How the results depend on the processing

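The count of integrin and laminin genes past the threshold stayed between 6 and 8 with RLE size factors, total counts, 2 other filters, no filter, limma-voom and unstranded counts, against 6 in the reported fit, and the 6 reported genes were among those called each time. DESeq2 called 10 integrin and laminin genes and 24 list genes (15 in the reported fit). The batch term for strand class left 29 genes past the threshold, 1 integrin or laminin gene and 1 list gene among them. Leaving out each library gave 65 to 3069 genes, 1 to 17 integrin and laminin genes and 2 to 58 list genes. Scaling by total counts gave 310 higher and 572 lower genes (35.1% higher, against 55.1%) and left the integrin and laminin calls at 5 higher and 1 lower. The causes of these changes were not tested, and no direction of an integrin or laminin gene past the threshold or at an unadjusted p under 0.05 reversed.

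No pairing by replicate number was seen. Deviations of same-numbered libraries correlated at -0.042, -0.085 and -0.091, and no library correlated best with its own number. With so few libraries, these values cannot show whether same-numbered samples shared a day or culture. With the replicate block 164 genes passed (1.12%), 2 of them integrin or laminin genes (LAMB3 and ITGA5) and 7 list genes. ITGA10 and ITGA11 had 19 to 47 reads per library, and the SEs of their log2 fold changes were 0.27 and 0.34, against 0.05 to 0.08 for the 6 genes past the threshold.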
